A study of Homo sapiens with 18 samples.

Results

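The SNHG genes, short for small nucleolar RNA host genes, were examined in PANC-1, a line established from a human pancreatic ductal adenocarcinoma. A gene was a member when its symbol in the human gene table used here was SNHG followed by a number, and 28 of the 58302 genes in the expression table met this rule. They were SNHG1, SNHG3 to SNHG12, SNHG14 to SNHG22 and SNHG25 to SNHG32. In GENCODE v29, SNHG29 to SNHG32 still carry the names LRRC75A-AS1, LINC02001, AC016708.1 and C6orf48. LINC00888, which RefSeq calls SNHG33, was kept apart. Control cells carried a control short hairpin RNA vector (shCtrl) and knockdown cells a short hairpin RNA vector against NAT10 (shNAT10), both delivered by lentivirus. mRNA sequencing (RNA-seq) had 3 libraries per group. The acRIP experiment, in which fragmented total RNA was precipitated with an antibody to N4-acetylcytidine (ac4C), had 3 input and 3 precipitated libraries per group and was deposited as 1 peak list per group. Both groups were of 1 cell line, and nothing in the sources used here says that the replicates were separate cultures, so p-values measure the spread between these libraries. In bulk RNA, fewer cells with a transcript and less of it per cell cannot be told apart.

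SNHG genes are transcribed into spliced RNAs that code for no known protein in most cases, and their introns carry small nucleolar RNAs (snoRNAs). Box C/D snoRNAs guide 2′-O-methylation and box H/ACA snoRNAs guide pseudouridylation, mainly of ribosomal RNA, and scaRNAs do the same for spliceosomal RNAs. Spliced host transcripts are often degraded by nonsense-mediated decay once ribosomes reach them, and several begin with a 5′ terminal oligopyrimidine tract, as mRNAs of ribosomal proteins do. NAT10 is the acetyltransferase that forms ac4C in ribosomal RNA, tRNA and mRNA. The comparison asked how the host transcripts stood after NAT10 knockdown and where ac4C peaks lay on them.

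NAT10 was at 31.6, 27.7 and 28.6 FPKM (fragments scaled by transcript length and library size) in the shCtrl libraries and at 7.92, 8.43 and 7.90 FPKM in the shNAT10 libraries, a log2 fold change of −1.84 ± 0.08 (SE, n = 3; adjusted p = 3.85e-05, limma). The epithelial keratins KRT8, KRT18 and KRT19 were abundant in every library, at 159 FPKM or more, but lower in shNAT10 cells. Their means were 1740, 1130 and 306 FPKM in shCtrl and 766, 627 and 170 FPKM in shNAT10 cells. KRT7 was at 8.62 FPKM in shCtrl and 4.75 FPKM in shNAT10 cells, and EPCAM at 4.87 and 22.6 FPKM. PTPRC, CD3E, PECAM1, INS and PRSS1, which mark immune, endothelial and normal pancreatic cells, were at or near 0. The stromal collagen gene COL1A1 was at 31.1 FPKM in shCtrl and 19.2 FPKM in shNAT10 cells. The step between neighbouring FPKM values corresponded to 15831712 to 23521747 reads per library.

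The sequences below introduce the members on which the results turn. The first set shows the annotated transcription start of 5 of the 6 members that changed, as 30 bases of RefSeq sequence (build GRCh38.p14) running from 10 bases before the start, with pyrimidine tracts in capitals. A tract was a C followed by further C or T, at least 5 bases in all, that began within 5 bases of the start on the transcribed strand.
SNHG3 start, chr1:28505933-28505962 (plus strand): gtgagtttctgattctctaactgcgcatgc
SNHG4 start, chr5:139274091-139274120 (plus strand): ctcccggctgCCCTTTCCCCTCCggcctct
SNHG5 start, chr6:85678714-85678743 (minus strand): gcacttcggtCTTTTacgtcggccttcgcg
SNHG16 start, chr17:76557754-76557783 (plus strand): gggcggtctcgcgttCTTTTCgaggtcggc
SNHG29 start, chr17:16438977-16439006 (plus strand): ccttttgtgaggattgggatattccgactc
SNHG4 and SNHG5 had a tract exactly at the annotated start, SNHG16 had it 5 bases downstream, and none began within 5 bases of the start in SNHG3 or SNHG29. Start windows were found for 24 members. Of these, 6 (25.0%) had at least 5 tract bases counted from the start itself, namely SNHG4, SNHG5, SNHG12, SNHG18, SNHG19 and SNHG32. In SNHG12 and SNHG18 that tract began before the start and ran across it. A tract that began within 5 bases of the start was found for 11 (45.8%). Over all 35116 RefSeq start windows the shares were 4.1% and 21.1%, and over the windows of the genes tested for expression they were 5.3% and 22.7%. The match is one of letters and says nothing about how the transcripts are used.

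The second set shows acRIP peaks on 3 members that fell after knockdown, with coordinates in GRCh38. In the SNHG16 peak the capitals mark runs of the motif CNN repeated at least 4 times in a row, with N for any base, which was searched on the transcribed strand because repeats of this kind have been described in ac4C peaks. In the SNHG5 and SNHG29 peaks the capitals mark the bases of the snoRNA gene that the peak overlapped, SNORD50B and SNORD65.
SNHG16 shCtrl peak, chr17:76565138-76565288 (plus strand): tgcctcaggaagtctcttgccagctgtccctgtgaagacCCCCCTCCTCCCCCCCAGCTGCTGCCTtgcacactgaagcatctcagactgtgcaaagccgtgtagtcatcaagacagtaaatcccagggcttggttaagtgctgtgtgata
SNHG5 shCtrl peak, chr6:85677429-85677637 (minus strand): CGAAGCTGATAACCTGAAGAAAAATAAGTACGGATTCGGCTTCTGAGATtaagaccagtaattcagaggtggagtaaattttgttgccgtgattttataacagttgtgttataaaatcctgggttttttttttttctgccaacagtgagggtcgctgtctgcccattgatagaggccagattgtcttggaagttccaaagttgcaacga
SNHG29 shCtrl peak, chr17:16440224-16441282 (plus strand, 2 exon blocks joined): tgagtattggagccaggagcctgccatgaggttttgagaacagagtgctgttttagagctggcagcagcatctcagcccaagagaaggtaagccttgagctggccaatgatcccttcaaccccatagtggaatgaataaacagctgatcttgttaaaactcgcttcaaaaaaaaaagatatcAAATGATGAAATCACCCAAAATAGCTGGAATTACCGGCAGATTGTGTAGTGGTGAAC

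The members covered a wide range of levels. SNHG5, SNHG32 and SNHG29 were the most abundant per length, with shCtrl means of 98.6 ± 17.7, 88.2 ± 10 and 84.6 ± 13.3 FPKM (SD, n = 3). SNHG6 followed at 50.8 ± 9.46, SNHG16 at 35.7 ± 5.19 and SNHG1 at 25.2 ± 3.21 FPKM. The first 3 differed by less than the spread between libraries. All 6 carry box C/D snoRNAs in the annotation, SNHG1 with 6 of them and SNHG16 and SNHG29 with 3 each. At the other end, SNHG18 and SNHG27 were listed at 0 in all 6 libraries, and SNHG21, SNHG22, SNHG25, SNHG28 and SNHG31 did not reach 1 FPKM in 3 libraries. These 7 members were not tested, and 21 of 28 were. Testing used log2(FPKM + 0.1), so fold changes of low genes are understated.

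**Figure D1:**
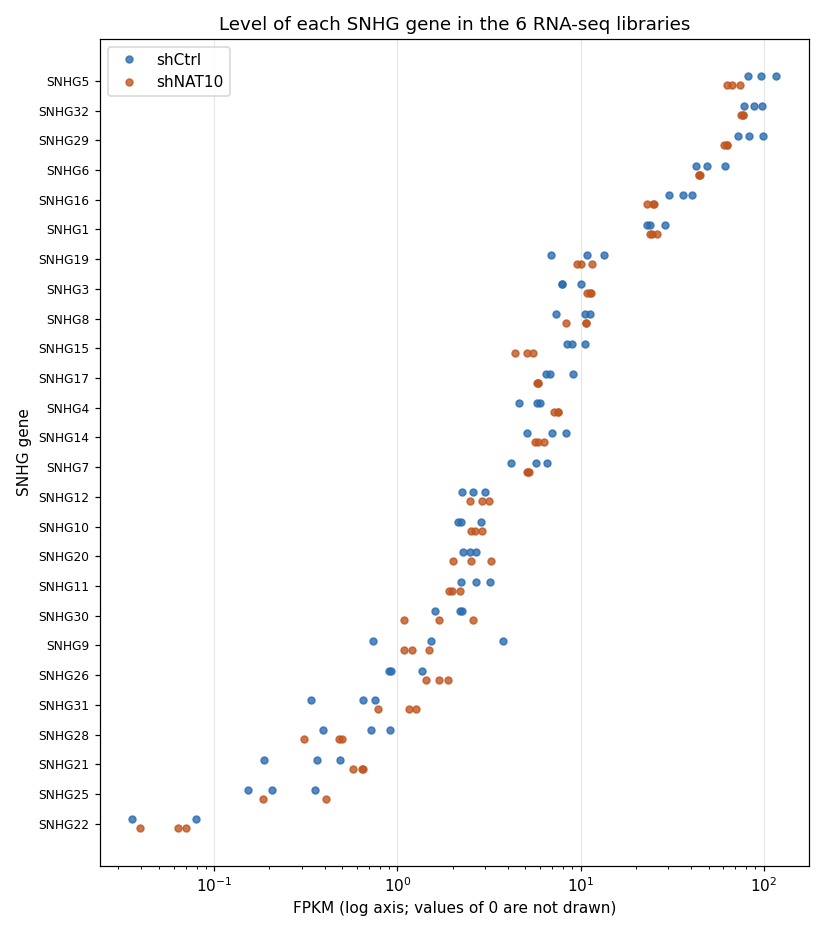
FPKM of each SNHG gene (log axis) in the 3 shCtrl and 3 shNAT10 RNA-seq libraries, 1 point per library, for the 26 members above 0 in any library. SNHG5, SNHG32 and SNHG29 lie at the top, and the 3 shNAT10 points of SNHG15, SNHG16, SNHG5 and SNHG29 lie below all of their shCtrl points.

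After NAT10 knockdown, 4 members fell and 2 rose at an adjusted p below 0.05. SNHG15, SNHG16, SNHG5 and SNHG29 were lower, and SNHG4 and SNHG3 were higher. Among all 12982 genes tested, 21.2% were lower and 20.8% higher, so the 4 and 2 of 21 members gave shares no larger than the background. Rescaled so that each library sums to the same total (TPM), 16% of all genes were lower and 25.8% higher, and 4 members were lower and 3 higher, with a member median of −0.06 against 0.10 for all genes. None of the 6 was beyond 1 on the log2 scale, whereas 6.48% of all genes tested were called and beyond it. The median log2 fold change of the 21 members was −0.17, with 13 below 0 and 8 above, against −0.01 for all genes tested and 0.11 for the 938 long non-coding RNA genes tested.

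SNHG15 changed most. It lies on chromosome 7 at 44983023 to 44986961 (GRCh38, minus strand) and carries SNORA9, a box H/ACA snoRNA. Its level was 8.95, 10.5 and 8.39 FPKM in the shCtrl libraries and 4.40, 5.09 and 5.52 FPKM in the shNAT10 libraries. Every shNAT10 library lay below every shCtrl library. The log2 fold change was −0.88 ± 0.12 (SE, n = 3; adjusted p = 0.00157, limma), from 484 to 661 reads per shCtrl library and 217 to 308 per shNAT10 library. No acRIP peak was listed on SNHG15 in either group. The call held in each of 16 alternative analyses, with adjusted p up to 0.00932.

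SNHG16, on chromosome 17 at 76557766 to 76565348 (plus strand), is the host of SNORD1A, SNORD1B and SNORD1C. It was at 30.3, 40.6 and 36.1 FPKM in shCtrl cells and at 24.7, 25.0 and 23.0 FPKM in shNAT10 cells. The 3 shNAT10 values were close together and below the lowest shCtrl value. The log2 fold change was −0.55 ± 0.11 (SE, n = 3; adjusted p = 0.00809, limma), and it too was called in each of the 16 alternatives. In the annotation, exons on the opposite strand cover 30.6% of the exonic bases of SNHG16. Whether reads were counted by strand is not given in the sources used here.

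SNHG5, on chromosome 6 at 85660950 to 85678748 (minus strand), carries SNORD50B, a box C/D snoRNA. Its shCtrl libraries were at 82.1, 117 and 96.3 FPKM and its shNAT10 libraries at 63.2, 73.7 and 67.0 FPKM. The groups did not overlap, and the log2 fold change was −0.52 ± 0.13 (SE, n = 3; adjusted p = 0.0186, limma). SNHG29, on chromosome 17 at 16438822 to 16478678 (plus strand), carries SNORD49A, SNORD49B and SNORD65. It was at 72.4, 98.8 and 82.7 FPKM in shCtrl cells and 62.7, 62.9 and 60.9 FPKM after knockdown, and its log2 fold change was −0.43 ± 0.11 (SE, n = 3; adjusted p = 0.0199, limma). Again no shNAT10 library reached the shCtrl range. Leaving out 1 library moved some of the calls of SNHG5 and SNHG29 past the threshold while the estimates stayed close. SNHG5 was no longer called without shCtrl replicate 3 or without shNAT10 replicate 1 or 3, with log2 fold changes of −0.53, −0.47 and −0.51 and adjusted p up to 0.072, and SNHG29 when shCtrl replicate 3 or any 1 shNAT10 library was left out, with log2 fold changes of −0.44 to −0.42 and adjusted p up to 0.071. The calls over all genes fell from 5450 to between 3502 and 3758 in these 4 fits.

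The members that rose carry box H/ACA snoRNAs, but so does SNHG15, which fell. SNHG7, SNHG8, SNHG9, SNHG11, SNHG12 and SNHG17 also carry them and were not called. SNHG4, on chromosome 5 at 139274102 to 139284899 (plus strand), is the host of SNORA74A and SNORA74D. It was at 5.80, 4.63 and 6.0 FPKM in shCtrl cells. In shNAT10 cells it was at 7.52, 7.49 and 7.19 FPKM, and the log2 fold change was 0.44 ± 0.11 (SE, n = 3; adjusted p = 0.0183, limma). All shNAT10 libraries were above all shCtrl libraries. In the annotation 14.0% of its exonic bases are also exons of MATR3 on the same strand. Of its 6 values only 1 came out as whole reads, so its level is less certain. SNHG3, on chromosome 1 at 28505980 to 28510892 (plus strand), carries SNORA73A and SNORA73B, which take part in processing of the ribosomal RNA precursor. It was at 7.92, 10.1 and 7.94 FPKM in shCtrl and 11.3, 11.4 and 10.8 FPKM after knockdown, and its log2 fold change was 0.38 ± 0.11 (SE, n = 3; adjusted p = 0.0271, limma). The groups did not overlap, although shCtrl replicate 2 came within 1 FPKM of shNAT10 replicate 3. In the annotation, exons of RCC1 cover 5.9% of its exonic bases. SNHG4 lost its call when any 1 shNAT10 library was left out (log2 fold change 0.43 to 0.46, adjusted p up to 0.0661). SNHG3 lost it when any 1 library other than shCtrl replicate 2 was left out, and also with no filter on expression (log2 fold change 0.32 to 0.40, adjusted p up to 0.0955).

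**Figure D2:**
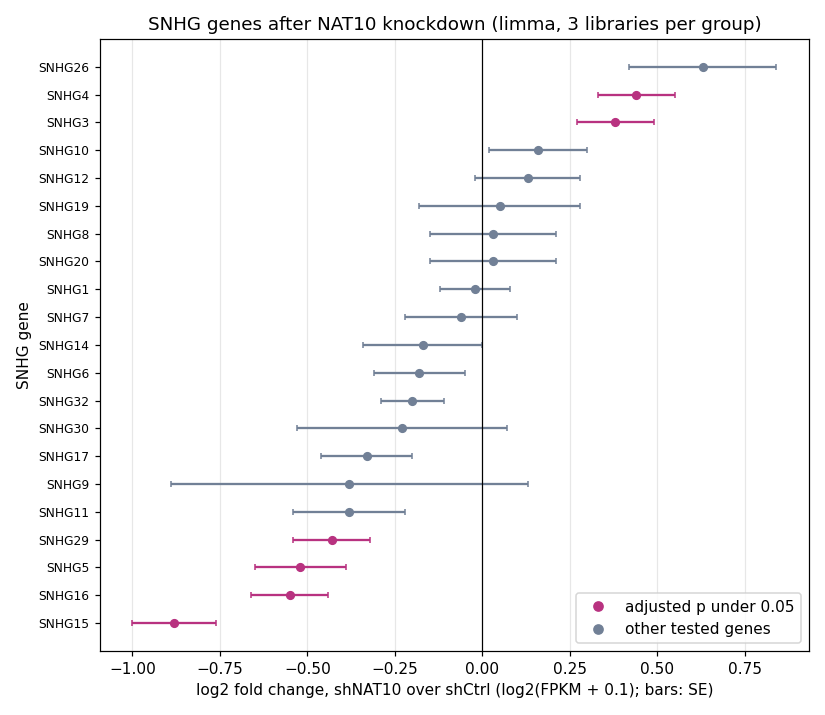
log2 fold change of shNAT10 over shCtrl for the 21 tested SNHG genes, with SE bars (limma, 3 libraries per group); coloured points have an adjusted p below 0.05. SNHG15 lies furthest to the left at −0.88, SNHG16, SNHG5 and SNHG29 follow between −0.55 and −0.43, and SNHG4 and SNHG3 lie at 0.44 and 0.38.

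The other 15 tested members did not pass the test. SNHG26, the host of SNORD93, had the largest estimate among them, at 1.36, 0.894 and 0.923 FPKM in shCtrl and 1.88, 1.44 and 1.69 FPKM in shNAT10 cells (log2 fold change 0.63 ± 0.21, SE; adjusted p = 0.0511, limma). It rested on 20 to 33 reads per library. Its shCtrl values of 0.894 and 0.923 FPKM were below 1 FPKM, so it passed the filter through its shNAT10 libraries, where it was higher. Its estimate and its lack of overlap therefore support nothing about the members. SNHG17, the host of SNORA71A to SNORA71D, had a log2 fold change of −0.33 (adjusted p = 0.0774), SNHG11 of −0.38 (0.0922) and SNHG32 of −0.20 (0.116). In these 4 members the groups did not overlap, as in the 6 that were called, which makes 10 of 21 against 56.5% of all genes tested. SNHG26 is counted in the 10 although it passed the filter through its shNAT10 libraries.

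The remaining 11 lay closer to their own error. SNHG9 had a log2 fold change of −0.38 with an SE of 0.51, from 6 to 36 reads per library. SNHG30 was at −0.23, SNHG6 at −0.18, SNHG14 at −0.17, SNHG7 at −0.06 and SNHG1 at −0.02. SNHG8 and SNHG20 were at 0.03, SNHG19 at 0.05, SNHG12 at 0.13 and SNHG10 at 0.16. Of the 6 values of each gene, 2 came out as whole reads for SNHG20 and 0 for SNHG12, so the levels of SNHG20 and SNHG12 are less certain. Of the remaining 11, 7 took the opposite sign under at least 1 alternative: SNHG1, SNHG7, SNHG8, SNHG9, SNHG19, SNHG20 and SNHG30.

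Of the shCtrl libraries, replicate 2 gave the highest value for 17 of the 21 tested members (81.0%), against 47.1% of all genes tested. The median member was 0.34 higher on the log2 scale in this library than in the mean of the other shCtrl libraries, against 0.04 for all genes. Genes whose longest transcript is under 1500 bases were higher there by a median of 0.31, against 0 for longer genes, and 7 of the 21 members are of the short class. The median log2 fold change of shNAT10 over shCtrl was −0.14 for all tested genes of the short class and 0.01 for longer ones. Without shCtrl replicate 2 the median log2 fold change of the members was 0.08 in place of −0.17, and 5 members were called lower and 2 higher. The part of this library in the members' changes was not tested beyond leaving it out.

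**Figure D3:**
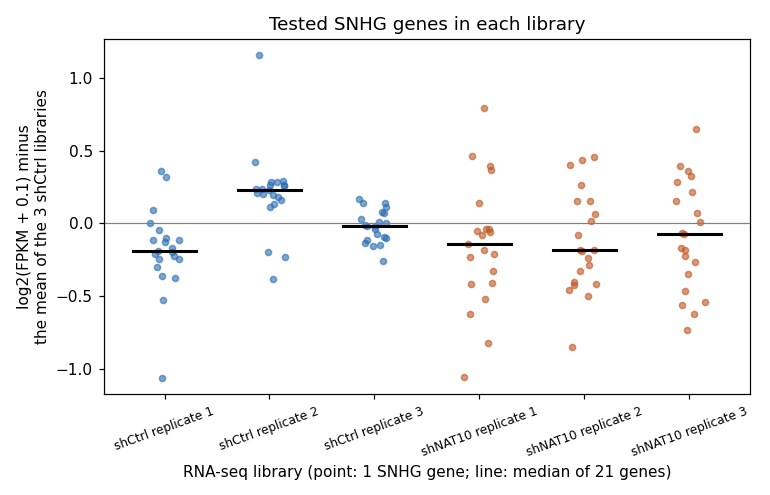
log2(FPKM + 0.1) of each of the 21 tested SNHG genes minus its mean over the 3 shCtrl libraries, by RNA-seq library; points are genes and lines are medians. The median is 0.23 in shCtrl replicate 2 and −0.19 in shCtrl replicate 1, and the shNAT10 medians lie between −0.18 and −0.07.

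The acRIP lists hold 16892 peaks for shCtrl and 15813 for shNAT10 cells. They were made from total RNA, whereas the RNA-seq libraries captured mRNA. With 1 list per group there is no replicate check, and a difference between the lists is a difference between these lists. The shCtrl list placed 10 peaks on 8 members, and the shNAT10 list placed 20 peaks on 12 members. Peaks in both lists were on 7 members, SNHG5, SNHG6, SNHG7, SNHG14, SNHG16, SNHG28 and SNHG29. SNHG17 had a peak in shCtrl cells alone, and SNHG3, SNHG4, SNHG8, SNHG30 and SNHG32 in shNAT10 cells alone. Among the 21 tested members, 7 (33.3%) had a shCtrl peak and 11 (52.4%) a shNAT10 peak, against 49.6% and 47.7% of all genes tested and 14.3% and 13% of the long non-coding RNA genes tested. Peaks in both groups were listed for 6 tested members (28.6%), against 33.7% of all genes tested and 6.3% of the long non-coding ones. A peak in shNAT10 cells alone was listed for 5 (23.8%), against 13.9% of all and 6.7% of long non-coding genes. For a peak in shCtrl cells alone it was 1 (4.8%), against 15.8% and 8.0%.

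Of the 10 shCtrl peaks on members, 1 overlapped a shNAT10 peak by at least 1 base on the same strand, and 1 of the 20 shNAT10 peaks overlapped a shCtrl peak. Over all peaks the shares were 25.6% of the shCtrl list and 27.4% of the shNAT10 list, and for peaks on long non-coding RNA genes 18.5% and 19.6%. The shared peak was that of SNHG16 printed above. The shCtrl peak is 151 bases long, lies in the last part of the longest transcript (bases 3397 to 3547 of 3607) and lies wholly inside a shNAT10 peak of 330 bases. Its fold enrichment of precipitated over input RNA was 8.15 in the shCtrl list and 36.0 in the shNAT10 list, at the 17.2 and 46.2 percentile of each list. The C-rich stretch in capitals stood in both peaks.

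SNHG5 had shCtrl peaks with fold enrichments of 7.49 and 2.21 and a shNAT10 peak of 4.88 at a different place. The first of them, printed above, held 49 bases of SNORD50B. SNHG29 had a shCtrl peak of fold enrichment 3.55 that held 57 bases of SNORD65, and shNAT10 peaks of 8.29, 4.91 and 2.25, of which the second held 34 bases of SNORD49B. These fold enrichments are low within their lists, whose medians were 49.3 and 45.2, and SNHG5 and SNHG29 are among the most abundant members. By the deposited p-value the order differed. The SNHG5 peak of 7.49 and the SNHG29 peaks of 3.55 and 2.25 were among the 50% of their lists with the lowest p-values. The SNHG5 peaks of 2.21 and 4.88 and the SNHG29 peaks of 8.29 and 4.91 were not. In all, 2 of the 10 shCtrl peaks and 3 of the 20 shNAT10 peaks on members overlapped a snoRNA gene, the others being on SNORD116-22 in SNHG14 and SNORD48 in SNHG32.

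SNHG7, the host of SNORA17A and SNORA17B, carried peaks of high fold enrichment in both lists: 483 and 272 in shCtrl and 1140 in shNAT10 cells, again at different places. Its RNA was at 4.16, 6.58 and 5.68 FPKM in shCtrl and 5.23, 5.09 and 5.14 FPKM in shNAT10 cells, with overlapping groups. SNHG14, the long imprinted host of the SNORD116 cluster in the Prader-Willi region, carried a shCtrl peak of 208 and shNAT10 peaks of 132, 459, 218 and 29.6. Its RNA was at 8.31, 5.08 and 6.98 FPKM in shCtrl and 6.29, 5.82 and 5.67 FPKM in shNAT10 cells. Neither passed the test. The SNHG14 value depended on the shCtrl libraries: its log2 fold change was −0.01 without shCtrl replicate 1, −0.36 without shCtrl replicate 2 (adjusted p = 0.0158, limma) and −0.39 with length and GC correction (adjusted p = 0.00354, limma), and it was called lower in the last 2 of these fits.

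SNHG6, the host of SNORD87, had a shCtrl peak of 2.03 and a shNAT10 peak of 39.1. Its RNA was at 42.4, 61.1 and 49.0 FPKM in shCtrl and 44.3, 44.2 and 44.6 FPKM in shNAT10 cells. SNHG17 had a shCtrl peak of 19.5 and was at 6.44, 9.04 and 6.84 FPKM in shCtrl and 5.85, 5.85 and 5.77 FPKM in shNAT10 cells. For SNHG6 the groups overlapped, and for SNHG17 they did not.

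SNHG3 and SNHG4, the members whose RNA rose, had peaks in the shNAT10 list alone: 10.4, 16.8 and 274 on SNHG3 and 15.9 on SNHG4. The first SNHG3 peak also covers exonic bases of RCC1, and the SNHG4 peak those of MATR3. Whether the higher RNA level has a part in the listing was not tested. SNHG30, the host of SNORD7, had a shNAT10 peak of 658 and was at 1.61, 2.20 and 2.26 FPKM in shCtrl and 1.09, 1.68 and 2.59 FPKM in shNAT10 cells. SNHG8, the host of SNORA24, had a shNAT10 peak of 3.48 and was at 7.38, 11.3 and 10.6 FPKM in shCtrl and 8.27, 10.7 and 10.7 FPKM in shNAT10 cells. Neither differed between the groups by more than its spread. SNHG32, the host of SNORD48 and SNORD52, had shNAT10 peaks of 2.33 and 7.37 and was at 78.2, 98.3 and 88.3 FPKM in shCtrl and 74.9, 77.4 and 77.2 FPKM in shNAT10 cells, and 23.2% of its exonic bases are also exons of AL671762.1 on the same strand. The peak of largest fold enrichment on any member in the 2 lists was assigned to SNHG28, 2540 in shCtrl cells, and its shNAT10 peak was at 244. Its RNA was at 0.392, 0.909 and 0.714 FPKM in shCtrl and 0.480, 0.309 and 0.498 FPKM in shNAT10 cells, and every exonic base of it lies also in an exon of VSIG8 or of another gene model named SNHG28, so these values are uncertain.

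The repeat of 4 CNN triplets was present in 7 of the 9 shCtrl member peaks whose bases all lie in annotated exons (77.8%) and in 12 of 20 shNAT10 member peaks (60%). Among all peaks it was present in 53.0% and 52.8%. The member peaks had median lengths of 224 and 180.5 bases, against 211 bases in both full lists.

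Small RNA genes inside the members were also in the RNA-seq table. Apart from SNHG14, which spans 84 of them, the members held 55, of which 22 are box C/D, 22 box H/ACA, 4 scaRNA and 7 of other or unnamed types. Of these 55 genes, 36 overlap an exon of their host and all 36 were listed at 0 in all 6 libraries. Of the 19 outside host exons, 14 were above 0 in at least 1 library. SNORA71B in SNHG17, for example, was at 2.18 to 3.60 FPKM in shCtrl and 2.84 to 3.74 FPKM in shNAT10 cells. In SNHG14, none of 13 exonic and 20 of 71 other small RNA genes were above 0. No level was read from these zeros, and the small RNA genes were not tested.

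**Figure D4:**
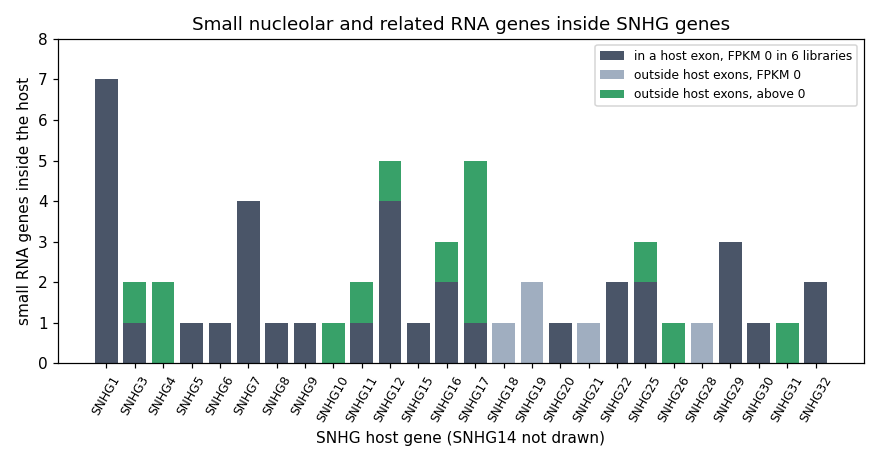
Number of small nucleolar and related RNA genes inside each SNHG host (SNHG14 is left out), split by whether they overlap a host exon and by whether any of the 6 RNA-seq libraries has a value above 0. All 36 genes in host exons are at 0, and 14 of the 19 outside them are above 0.

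Among other snoRNA host genes, 5 non-coding ones were tested and 1 was lower, MEG8 (log2 fold change −1.19, adjusted p = 0.00584, limma), with a list median of −0.19. MEG8 was under 1 FPKM in all 3 shNAT10 libraries and passed the filter through the shCtrl libraries, so it had to differ and its call supports nothing about the list. GAS5 was at −0.19, ZFAS1 at −0.17 and DANCR at −0.41, and none of these 3 passed the test. Of 46 protein-coding hosts, 7 were higher and 11 lower, with a median of −0.21. Among them the import receptor gene IPO7 was at −0.97, the pseudouridine synthase gene DKC1 at 0.83 and the ribosomal protein gene RPL17 at −0.59. RPL17 was low, at 2.98 FPKM in shCtrl and 1.94 FPKM in shNAT10 cells. The next lowest ribosomal protein gene of the list, RPL21, was at 16.6 and 14.2 FPKM, so the RPL17 value is less certain.

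Of 20 genes for proteins of the snoRNA particles and their assembly, 3 were higher and 8 lower, with a median log2 fold change of −0.19. NOLC1, a nucleolar chaperone of snoRNA particles, went from 18.6 ± 0.605 to 65.3 FPKM (log2 fold change 1.81 ± 0.06, SE; adjusted p = 3.05e-05, limma). DKC1 rose from 48.9 to 87.2 FPKM, and SNU13, which binds box C/D snoRNAs, fell from 47.8 to 27.3 FPKM. Of 19 genes for nonsense-mediated decay and exon junction factors, 8 were higher and 1 lower, with a median of 0.28. UPF2 was at 1.02 and SMG8 at −1.26. Each of these lists stands beside backgrounds of 20.8% higher and 21.2% lower, and their differences from other genes were not tested.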

How the data were processed

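RNA-seq and acRIP-seq libraries of PANC-1 cells were analysed from the deposited tables. The RNA-seq table holds FPKM values per gene that the authors made from reads aligned to hg38; the submitters' processing notes name HISAT2 version 2 and HTSeq version 0.11.0, without their settings. FPKM values were whole multiples of 1 read per longest GENCODE v29 transcript for 97.6% to 97.7% of the values above 0 and under 1000 reads (tolerance 0.05 reads), which gave the read numbers. The acRIP lists hold peaks that the authors called with each group as 1 list, with a fold enrichment (a ratio, column of the deposited file) and a deposited score for the log10 p-value; the peak caller is not given in the sources used here. No SNHG peak was tested between groups. Peak starts, deposited from 0, are given from 1.

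Genes with at least 1 FPKM in at least 3 libraries (12982) were tested on log2(FPKM + 0.1) with limma 3.58.1 (R 4.3.3), with a mean-variance trend, a two-sided test and Benjamini-Hochberg adjustment over all of them; called genes had an adjusted p below 0.05. The test was also run on simulated data in which 200 genes had known changes of 1 on the log2 scale. That is more than any called member showed. Noise there was independent between genes, so a deviation shared by many genes of a library was not covered. Every member is named, those called or carrying a peak with each library's value, and at most 3 called genes per pathway list. Members and lists were chosen with earlier results of these data known. Sequences came from RefSeq start windows and GENCODE v29 transcripts. Alternatives were another pseudocount, filters, scalings, a replicate block, length and GC correction, recovered reads, each library left out, and other peak criteria.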

Additional observations from a re-analysis of the deposited data

How the results depend on the processing

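The replicate numbers did not pair the libraries: deviations of same-numbered libraries correlated at −0.04, 0.06 and 0.11, and best with their own number in replicates 2 and 3 but not in replicate 1. A fit with the replicate block called 3 members higher and 4 lower with a median log2 fold change of −0.17, and 5127 in place of 5450 genes in all. With no filter on expression, 1 member was called higher. Leaving out 1 library at a time gave 0 to 2 members called higher, 2 to 7 called lower and a median log2 fold change of −0.24 to 0.08. The highest count of lower members came without shCtrl replicate 1 (7) and the positive median without shCtrl replicate 2. Leaving out a shNAT10 library or shCtrl replicate 3 lowered the calls over all genes to 3502 to 3758, while leaving out shCtrl replicate 2 raised them to 6493; the cause was not tested. Scaling to TPM moved the median of all genes to 0.10 on the log2 scale.

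Members with a log2 fold change near 0 turned sign as follows. Leaving out 1 library at a time gave −0.08 to 0.09 for SNHG1, −0.15 to 0.16 for SNHG8, −0.91 to 0.20 for SNHG9, −0.21 to 0.26 for SNHG19 and −0.53 to 0.06 for SNHG30. SNHG1 was at 0.00 with quantile normalization, 0.09 with TPM, 0.09 without shCtrl replicate 2 and 0.01 without shNAT10 replicate 3. SNHG7 was at 0.05 with TPM, 0.19 with length and GC correction and 0.08 without shCtrl replicate 2, where SNHG9 was at 0.20. SNHG8 was at −0.15 without shCtrl replicate 1 and −0.03 without shNAT10 replicate 2 or 3. SNHG19 was at −0.21 without shCtrl replicate 1 and −0.03 without shNAT10 replicate 3. SNHG20 was at −0.03 without shCtrl replicate 1 and −0.14 without shNAT10 replicate 1, where SNHG30 was at 0.06. Calls were gained without shCtrl replicate 1 by SNHG6 (−0.30), SNHG17 (−0.43) and SNHG32 (−0.28), with length and GC correction by SNHG17 (−0.26) and SNHG14, and with quantile normalization by SNHG32 (−0.19). SNHG26 was called in 7 of its 15 alternatives, but it had passed the filter through its shNAT10 libraries, where it was higher. It was the member added to the higher count with TPM and with the replicate block.

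Keeping the 50% of each peak list with the highest fold enrichment left 3 members with a shCtrl peak, 5 with a shNAT10 peak and 3 with both; keeping the 50% with the lowest p-values left 5, 6 and 2. Assigning peaks by exon overlap left all 3 counts as they were. Asking for 50% of both peaks left 0 of the 10 shCtrl peaks overlapping.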

Other observations

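There are 5 genes that carry a SNHG number as another name and were kept apart from the members. GAS5 (SNHG2) was at 38.2 ± 7.46 FPKM in shCtrl and 33.1 ± 3.01 FPKM in shNAT10 cells (SD, n = 3), and DANCR (SNHG13) at 18.1 ± 4.29 and 13.3 ± 0.638 FPKM. LINC00888 (SNHG33) was at 9.25 ± 0.504 and 8.75 ± 0.319 FPKM, and these 3 did not pass the test. MEG8 (SNHG23 and SNHG24) fell from 1.80 ± 0.327 to 0.734 ± 0.144 FPKM, having passed the filter through its shCtrl libraries alone. A further gene model named SNHG28 was listed at 0 in all libraries. Together with the 4 of them that were expressed enough for a test, the tested genes numbered 25.

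Among the members below the filter, SNHG31, the host of SNORA70I, was at 0.755, 0.336 and 0.646 FPKM in shCtrl and 1.26, 0.782 and 1.16 FPKM in shNAT10 cells, so that the groups did not overlap, from 13 to 39 reads per library. SNHG21, the host of SCARNA15, was at 0.365, 0.188 and 0.484 FPKM in shCtrl and 0.640, 0.651 and 0.573 FPKM in shNAT10 cells, from 3 to 10 reads, and 72.9% of its exonic bases are also exons of AC105339.2 on the same strand. Neither was tested. SNHG28 had 9 to 28 approximate reads per library, and SNHG22 and SNHG25 had 0 to 3.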
